A study of Mus musculus with 2 samples.

Results

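The regions described here are the H3K4me1 intervals that were called when both replicates of a mouse embryonic stem cell line were pooled but that the authors did not keep in their list of replicated peaks. They were chosen by position. An interval of the pooled list on chromosomes 1 to 19 of the mm10 genome was included when no interval of the replicated list had the same chromosome, start and end. This rule gave 81256 intervals of 303826, or 26.7% of the pooled autosomal list, and the other 222570 are called kept intervals here. The cells were E14TG2a.4, a male line of mouse embryonic stem cells from the 129/Ola strain, with no treatment or engineered allele named in the labels, and the data were 2 biological replicates of ChIP-seq, in which chromatin carrying the mark is precipitated and sequenced. They form 1 group. Since agreement between the replicates decided which intervals were kept, the values below describe the intervals, and no test was made.

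H3K4me1 is a histone mark that enzymes of the KMT2 family place on nucleosomes at enhancers, both active and primed, and beside the start sites of promoters. At a CpG-rich promoter in use, nucleosomes next to the start carry trimethylation of the same lysine, and monomethylation forms shoulders further out. In embryonic stem cells the mark is known at enhancers of pluripotency genes and also at enhancers of genes used later in development. A pooled peak call combines the reads of the replicates, and a replicated list keeps the pooled intervals that also meet a rule of agreement between replicates.

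The lists held 313453 intervals for replicate 1, 325226 for replicate 2, 309213 for the pooled replicates and 226060 for the replicated peaks over all chromosomes. All 226060 replicated intervals were also in the pooled list. The lists give no read counts, so the depth of both replicates is unknown. The labelled cell type was checked with 23 genes of pluripotency. All 23 had a kept interval within 20 kb of the transcription start site (TSS), but so did 17174 of all 20364 genes, all 15 mesoderm and all 14 neuroectoderm genes, so this count does not set the cell type apart. For the pluripotency genes the median share of that 40 kb window in peaks was 50.9% in replicate 1 and 48.2% in replicate 2, against 15.4% and 15.02% over all genes. Over both replicates the median was 49.8% for these genes, 47.4% for 9 formative, 40.9% for 39 Hox and 38.3% for 12 trophectoderm genes. It was 26.7% for mesoderm and 27.8% for neuroectoderm genes. High coverage was thus not particular to the pluripotency genes.

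As examples of sequence, the part of a promoter that lies inside an interval not kept is given for 6 genes. These examples are not typical of the intervals, of which 1.43% had their centre within 500 bp of a TSS. Each piece is the overlap of the interval with the 250 bases before the start in the RefSeq promoter table (GRCm38.p6), on the gene's strand, with CpG dinucleotides in capitals. The first 4 genes had no kept interval within 20 kb. They are Gabrg3 (chr7:57387350-57387465, minus strand), which encodes a GABA receptor subunit, Dhrs2 (chr14:55221779-55222006, plus strand), a short-chain dehydrogenase gene, Xirp2 (chr2:67445880-67446001, plus strand), a striated muscle gene, and Krt5 (chr15:101712906-101713041, minus strand), the keratin gene of basal epidermis. The last 2 are promoters of broadly used genes that had kept intervals nearby, Nploc4 (chr11:120437838-120437950, minus strand), a cofactor of the p97 ATPase, whose interval was overlapped by replicate 1 only, and Usp40 (chr1:88008664-88008801, minus strand), a deubiquitinase gene, whose interval was overlapped by replicate 2 only.
Gabrg3: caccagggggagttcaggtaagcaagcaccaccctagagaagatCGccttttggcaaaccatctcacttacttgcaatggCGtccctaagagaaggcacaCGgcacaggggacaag
Dhrs2: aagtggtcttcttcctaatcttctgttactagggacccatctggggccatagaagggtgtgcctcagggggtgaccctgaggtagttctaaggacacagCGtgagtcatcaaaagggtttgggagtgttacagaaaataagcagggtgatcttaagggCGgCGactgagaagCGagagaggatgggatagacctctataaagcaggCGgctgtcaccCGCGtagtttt
Xirp2: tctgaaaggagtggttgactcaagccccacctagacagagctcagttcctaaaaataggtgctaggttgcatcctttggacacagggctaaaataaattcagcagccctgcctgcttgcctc
Krt5: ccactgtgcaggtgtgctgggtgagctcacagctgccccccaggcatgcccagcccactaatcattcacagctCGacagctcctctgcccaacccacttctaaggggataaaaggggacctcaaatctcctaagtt
Nploc4: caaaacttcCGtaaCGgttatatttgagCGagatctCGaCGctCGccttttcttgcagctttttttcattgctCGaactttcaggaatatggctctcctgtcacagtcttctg
Usp40: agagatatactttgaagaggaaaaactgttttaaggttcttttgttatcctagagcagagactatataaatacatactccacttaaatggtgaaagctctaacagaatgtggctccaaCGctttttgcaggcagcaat
The pieces held 3 CpGs in Gabrg3, 7 in Dhrs2, 0 in Xirp2 and 1 in Krt5, against 7 in Nploc4 and 1 in Usp40. Their lengths differed, from 113 bases in Nploc4 to 228 in Dhrs2. Of these 6, only the piece of Nploc4 belonged to a promoter in the highest tertile of CpG content, described further on. Nploc4 and Usp40 do not stand for their classes. Over all such pieces at genes with a kept interval, the median was 3.5 CpGs in 156 pieces of replicate 1 only. It was 3 in 50 pieces of replicate 2 only.

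The intervals not kept were narrow. Their median width was 219 bp, with a range of 170 to 978 bp, against a median of 696 bp and a range of 170 to 33348 bp among kept intervals. They made up 26.7% of the pooled intervals but 7.91% of the bases in them. The authors' signal value had a median of 2.55 among intervals not kept and 4.25 among kept ones, and the authors' −log10 q had medians of 3.58 and 12.8. The ranges overlapped, since the highest signal value among intervals not kept was 4.64, above the median of the kept intervals. These values come from the pooled call itself and are the authors' own per peak.

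The share that was not kept was lower in each class of wider intervals and in each class of higher −log10 q. Of pooled intervals under 200 bp, 95.9% were not kept. The share was 48.9% between 250 and 300 bp, 2.68% between 500 and 750 bp and 0 of 74733 at 1000 bp or more. Below a −log10 q of 2 it was 94.8%, between 4 and 5 it was 62.5%, and between 10 and 15 it was 0.422%. At a −log10 q of 15 or more, 1 of 94484 intervals was not kept.

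**Figure D1:**
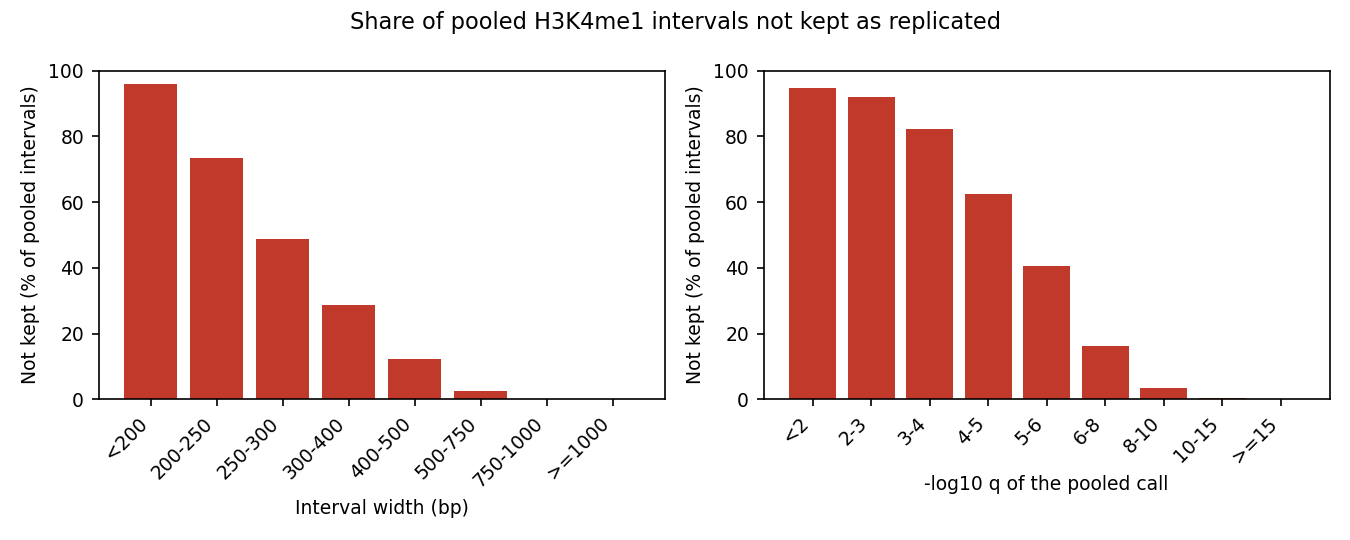
Share of pooled autosomal intervals that were not kept (percent, bars), by interval width in bp (left) and by the authors' −log10 q of the pooled call (right). The share is 95.9% under 200 bp and 0% from 1000 bp, and 94.8% below a −log10 q of 2.

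Most intervals not kept were seen in 1 replicate. By an overlap of at least 1 bp, 27060 intervals not kept (33.3%) were overlapped by the replicate 1 list only, 34187 (42.1%) by the replicate 2 list only, 1032 (1.27%) by both and 18977 (23.4%) by neither. Among kept intervals the same shares were 3.14%, 5.26%, 91.5% and 0.133%. On each of the 19 autosomes the share seen in replicate 2 only was above that seen in replicate 1 only, with ranges of 39.7% to 44.6% and 31.3% to 35.8%. The autosomes come from the same libraries and do not replicate this order. The intervals seen in neither replicate were the narrowest, with a median of 196 bp and a median −log10 q of 3.06, against 225 bp and 3.79 for replicate 1 only and 230 bp and 3.91 for replicate 2 only.

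**Figure D2:**
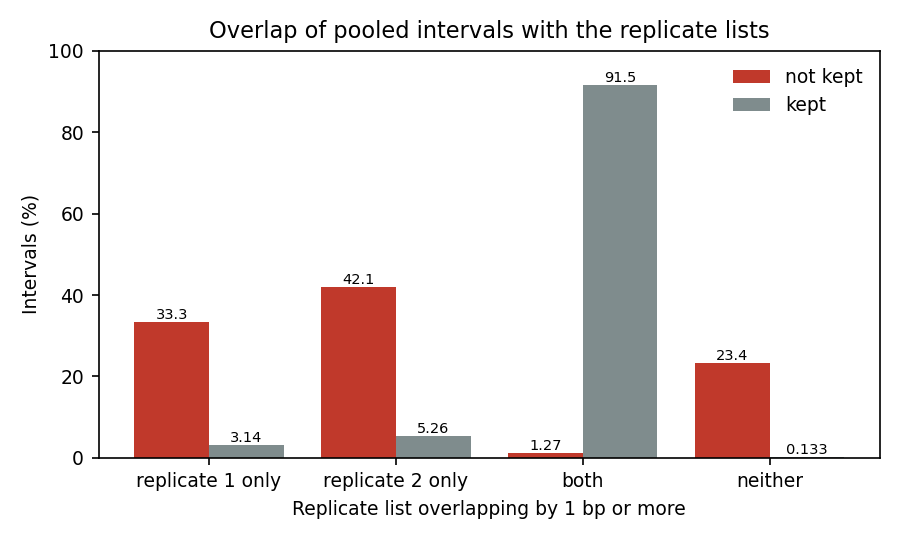
Percent of intervals not kept (left bar of each pair) and of kept intervals (right bar) that are overlapped by at least 1 bp by the list of replicate 1 only, replicate 2 only, both or neither. Intervals not kept lie mostly in the single-replicate classes (33.3% and 42.1%), kept intervals in the class of both (91.5%).

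Overlap with both replicates at once is close to what decided which intervals were kept, since the replicated list was derived from the replicate lists. A difference between the classes is therefore built in, and its values are given as description only. No interval not kept, 0 of 81256, was matched in each of the replicates by an interval whose overlap reached 50% of the length of either, whereas 203111 of the 222570 kept intervals (91.3%) were. The interval not kept that came closest lies within Hacd2, a gene of very long chain fatty acid synthesis, on chromosome 16 from 35052543 to 35052841. Replicate 1 covered 49.8% of it, and replicate 2 covered 55.5% of it with an interval that lay wholly inside (100% of that interval). The next lies within the microtubule regulator gene Clasp1 on chromosome 1 from 118472513 to 118472726, where the best overlaps were 100% in replicate 1 and 49.7% in replicate 2. On the other side of the boundary, 19459 kept intervals (8.74%) lacked such a match in both replicates as well. These lay between the classes in size, with a median width of 347 bp and a median −log10 q of 5.74. The criterion that kept them is not given in the sources used here.

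In the replicate lists themselves the matching intervals were also small. The 25970 intervals of replicate 1 that touched an interval not kept, and no kept interval, had a median width of 222 bp and a median −log10 q of 3.13, against 473 bp and 6.56 for the 268172 that overlapped a kept interval. In replicate 2, 33736 such intervals had medians of 216 bp and 3.12, against 470 bp and 6.70 for the 273157 that overlapped a kept interval.

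The widest intervals not kept were mostly intervals of replicate 2. In 8 of the 10 widest, replicate 2 covered between 62.2% and 99.4% and replicate 1 covered none, and the other 2 were covered by replicate 1 only. The widest spanned 978 bp within App, the gene of the amyloid precursor protein, on chromosome 16 from 85041169 to 85042146, with 94.2% covered in replicate 2. Others lay within Ppm1h, a phosphatase gene (886 bp), Pfkl, the liver phosphofructokinase gene (873 bp), and Ube2ql1 (862 bp). Intervals of 933 bp and 912 bp had Dennd1b and Htr3a, a serotonin receptor gene, as their nearest genes.

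Among the 10 intervals not kept with the highest signal values, 8 were covered by replicate 1 and 2 by replicate 2, and none by both. The highest, with 4.64, lay on chromosome 5 from 119254296 to 119254525, between genes, with its nearest TSS that of the T-box gene Tbx3 at 416124 bp. It was 230 bp wide, replicate 1 covered 96.5% of it, and the next kept interval was 176 bp away. The next 4 shared a signal value of 4.52. Among them was an interval 256 bp upstream of the TSS of Zfp7, a zinc finger gene, on chromosome 15 from 76878884 to 76879110, of which replicate 2 covered 92.1%. An interval with 4.41 had its centre 563 bp downstream of the TSS of Flt3, a receptor tyrosine kinase gene of blood progenitors, and replicate 1 covered 68.7% of it. All 10 lay between 50 and 649 bp from a kept interval.

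Many intervals not kept lay beside kept ones. The median gap to the nearest kept interval was 555 bp, with quartiles of 173 and 2372 bp. Of the intervals not kept, 61.1% lay within 1 kb of a kept interval and 29.2% within 200 bp. For comparison, the median gap of a kept interval to the nearest other kept interval was 273 bp, and 73.1% lay within 1 kb of one. Kept intervals stood within 1 kb on both sides of 17.0% of the intervals not kept, and 7729 (9.51%) filled gaps of up to 1 kb between neighbouring kept intervals, so that they lay inside a domain if kept intervals are joined at that distance. Of the kept intervals, 29.3% had other kept intervals within 1 kb on both sides, and 6.51% lay between kept neighbours at most 1 kb apart. The smallest gap was 46 bp in both classes. The gap was shortest for the 1032 intervals that both replicates touched, with a median of 198 bp, against 509 bp for replicate 1 only, 553 bp for replicate 2 only and 651 bp for neither.

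At the other end, 3871 intervals not kept (4.76%) lay over 20 kb from any kept interval, against 5517 kept intervals (2.48%) as far from another kept one. These distant intervals were as wide as the rest, with a median of 218 bp, and had a median −log10 q of 3.58. Their centres lay a median of 122098 bp from a protein-coding TSS, and 55.7% were over 100 kb away. The farthest was 1303490 bp from a kept interval.

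Along the chromosomes, intervals not kept stood singly or in short runs without a kept interval between them. There were 55819 runs, of which 38632 held 1 interval, and these single intervals were 47.5% of all intervals not kept. Runs of 5 or more numbered 616, and the longest held 14. Of the 3 runs of 10, named after their values were seen, each had its centre in a gene body. One spanned 25739 bp with its centre in Fbxl5, an iron-sensing ubiquitin ligase gene, on chromosome 5 from 43751632 to 43777370. Replicate 1 overlapped 3 of its intervals and replicate 2 overlapped 6. A run of 17925 bp with its centre in Ubfd1, on chromosome 7 from 122071794 to 122089718, was overlapped at 1 interval by replicate 1 and at 8 by replicate 2. The third, of 16022 bp with its centre in Taf1a, a gene of the RNA polymerase I machinery, was overlapped at 0 intervals by replicate 1 and at 8 by replicate 2. In these 3 runs replicate 2 thus overlapped more intervals than replicate 1. The same held in the run of 14, with its centre in Ube2d2a, where replicate 1 overlapped 5 and replicate 2 overlapped 9. Among the runs of 9 the order varied. At one end, over 203360 bp near Tmem45a2, replicate 1 overlapped 7 and replicate 2 overlapped 1. At the other, over 45516 bp with its centre in Bzw2, the counts were 2 and 5.

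Intervals not kept were farther from promoters than kept ones. Distances were taken from the interval's centre to the nearest of 20364 protein-coding TSSs, each the 5' end of its gene record. Within 2 kb of a TSS lay 4545 intervals not kept (5.59%), against 26157 kept intervals (11.8%), and the share was lower among intervals not kept on 19 of 19 autosomes. Between 2 and 20 kb the shares were 36.6% and 37.4%, between 20 and 100 kb 39.6% and 36.3%, and over 100 kb 18.3% and 14.6%. Gene bodies held the centres of 60.8% of the intervals not kept and 59.6% of the kept ones. Read the other way, 14.8% of the 30702 pooled intervals within 2 kb of a TSS were not kept, against 31.4% of the 47288 over 100 kb away. The median width of intervals not kept was 214 bp within 2 kb and 219 bp beyond 100 kb, and that of kept intervals was 805 bp and 617 bp.

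Around the TSS, the intervals seen only in replicate 1 and those seen only in replicate 2 were placed differently. Of the intervals not kept and overlapped by replicate 1 only, 9.04% had their centre within 2 kb of a TSS, against 3.34% of those overlapped by replicate 2 only and 4.80% of those overlapped by neither. Replicate 1 had the higher share on 19 of 19 autosomes, and the ranges over autosomes, 7.19% to 13.3% for replicate 1 only and 2.42% to 4.58% for replicate 2 only, did not overlap. All autosomes come from the same 1 library per class, so they do not replicate this difference. Within 500 bp the shares were 2.66% for replicate 1 only and 0.673% for replicate 2 only, and the TSS itself lay inside such an interval at 128 genes for replicate 1 only and 53 for replicate 2 only. Replicate 1 only was the class of 53.8% of the intervals not kept within 2 kb of a TSS and replicate 2 only that of 25.1%, whereas beyond 100 kb the shares were 32.2% and 43.0%.

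In bins of 250 bp, intervals of replicate 1 only were densest between 500 and 250 bp upstream of the TSS, with 8.87 per 1000 intervals of the class, where replicate 2 only had 2.49 and kept intervals 11.1. Between 250 and 500 bp downstream, replicate 2 only had its lowest density within 5 kb of the TSS, 0.936 per 1000, against 6.17 for replicate 1 only. From 4750 to 5000 bp downstream replicate 1 only had 4.43 and replicate 2 only 4.45. Kept intervals overlapped by 1 replicate showed the same order, with 13.2% of 6982 intervals of replicate 1 only and 3.16% of 11716 of replicate 2 only within 2 kb. The replicate lists as a whole were close, with 11.1% of the autosomal intervals of replicate 1 and 10.3% of replicate 2 within 2 kb of a TSS. Among the 52317 intervals of replicate 1 that the other list did not overlap the share was 9.76%, and among the 65852 of replicate 2 it was 3.38%. Each class rests on 1 library. Per the read-me lists, the list of replicate 2 also drew on a file that the list of replicate 1 did not, with its role not stated. The part of that file in the difference was not tested.

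**Figure D3:**
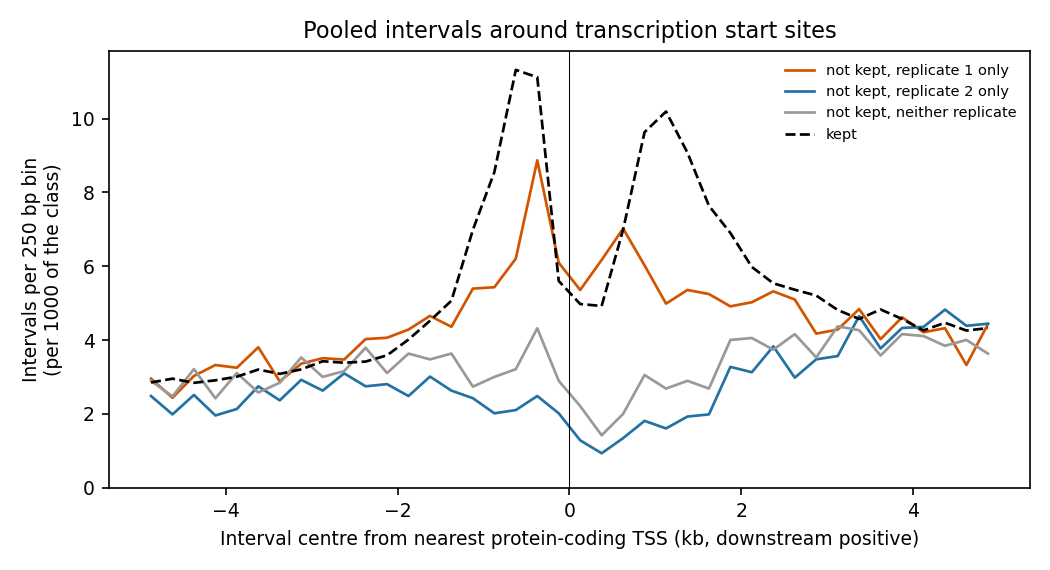
Density of interval centres around the nearest protein-coding TSS (x axis, kb, downstream positive), as intervals per 250 bp bin per 1000 intervals of the class (y axis), for intervals not kept by overlapping replicate list and for kept intervals (dashed). Intervals of replicate 1 only reach 8.87 upstream of the TSS, where intervals of replicate 2 only have 2.49.

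The CpG content of the promoter gave another view of the same classes. Promoter sequence, 250 bases before to 50 bases after the start, was matched for 16457 genes, and promoters were split into tertiles by the ratio of observed to expected CpG dinucleotides. In the lowest tertile, 2.61% of 5487 promoters had an interval of replicate 1 only within 500 bp of the start and 1.33% had an interval of replicate 2 only. In the middle tertile replicate 1 only stood at 6.27% and replicate 2 only at 1.51%, and in the highest at 4.50% and 0.857%. Intervals seen in neither replicate stood at 1.08%, 1.31% and 1.09% of promoters from the lowest to the highest tertile. Kept intervals stood within 500 bp of 28.6%, 78.4% and 68.5%. The classes of replicate 1 only and replicate 2 only thus lay farther apart in the middle and highest tertiles than in the lowest.

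**Figure D4:**
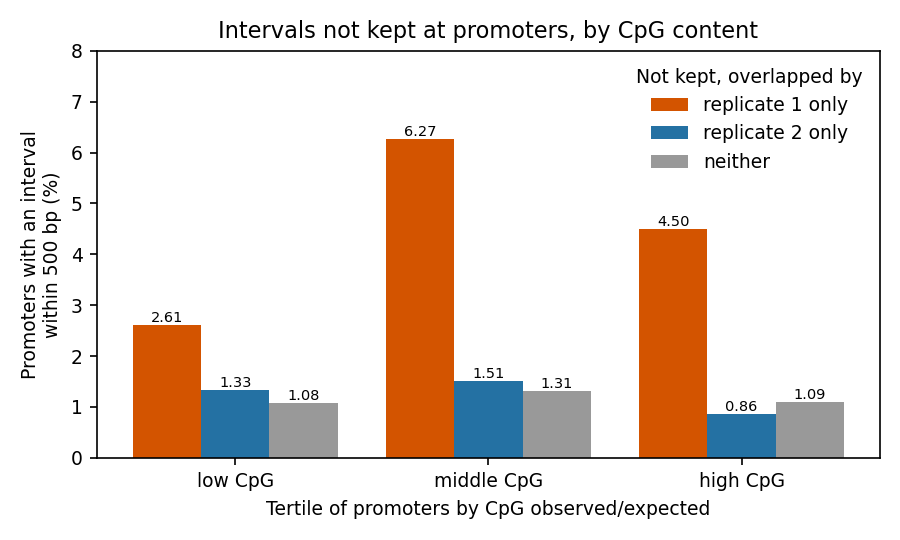
Percent of promoters (y axis) with an interval not kept within 500 bp of the start, by tertile of observed to expected CpG (x axis) and by the replicate list that overlaps the interval. Replicate 1 only stands at 2.61%, 6.27% and 4.50% from the lowest to the highest tertile, replicate 2 only at 1.33%, 1.51% and 0.857%.

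Few genes had intervals not kept as their only pooled H3K4me1 intervals near the start. Of 20364 protein-coding genes, 358 (1.76%) had at least 1 interval not kept and no kept interval within 20 kb of the TSS, 17174 had a kept interval and 2832 had no pooled interval. The 358 were 2.04% of the 17532 genes with any pooled interval in the window. In 272 of the 358 genes (76.0%) there was 1 interval, and the most was 4. The median share of the window in peaks was 0.412% in replicate 1 and 0% in replicate 2, against 20.5% and 20.1% at genes with a kept interval. Both replicate lists covered some part of the window at 50 of the 358 genes, not necessarily the same bases. Replicate 1 alone did so at 146, replicate 2 alone at 110 and neither at 52. The TSS lay inside an interval not kept at 17 of these genes and within 500 bp of one at 49. The next kept interval was a median of 44776 bp from the TSS, and over 100 kb away at 71 genes. Windows overlapped between neighbours, since 116 of the 358 had another protein-coding TSS within 20 kb. With intervals that replicate 2 overlapped, 149 such genes remained, and with those that replicate 1 overlapped, 184, all of them among the 358. With windows of 10 kb there were 357 such genes, of which 220 were among the 358.

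Among the gene lists, the shares with only intervals not kept were above the 1.76% of all genes for chemosensory receptors, keratins, beta-defensins and interleukins. No test was made of these shares. Of 1102 olfactory receptor genes, which encode odorant receptors of the nose, 54 (4.90%) were such genes, while 228 had a kept interval and 820 had no pooled one. Among the 282 with any pooled interval, the 54 were 19.1%, against 2.04% over all genes. For vomeronasal receptors, which detect pheromones, the count was 22 of 349 (6.30%), or 36.1% of the 61 with any pooled interval. It was 2 of 35 for bitter taste receptors, 8 of 108 (7.41%) for keratins and keratin-associated proteins, 4 of 42 (9.52%) for beta-defensins, which are antimicrobial peptides, and 5 of 78 (6.41%) for interleukins and their receptors. Several counts were small, as in the 3 of 22 UDP glucuronosyltransferase genes (13.6%), 3 of 98 cytochrome P450 genes (3.06%), 2 of 37 chemokine genes (5.41%), 1 of 26 interferon genes (3.85%), 1 of 19 carboxylesterase genes (5.26%) and 1 of 17 genes of liver secreted proteins (5.88%). Serpins, with 1 of 62 (1.61%), lay below the share of all genes. Among the 27 serpins with any pooled interval the share was 3.70%, above the 2.04% over all genes. Receptor genes are clustered and share windows, so they are not independent. The same held in other lists, as Krt5 and Krt6a shared their intervals and Defb22 and Defb26 shared an interval.

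Solute carriers with 7 of 376 (1.86%), Zfp zinc finger genes with 5 of 387 (1.29%), potassium channel genes with 1 of 79, cadherins and protocadherins with 1 of 63 and receptors for GABA and glutamate with 1 of 37 (2.70%) lay closer to the share of all genes. None was found among 23 pluripotency, 9 formative, 15 mesoderm, 14 neuroectoderm, 14 endoderm, 12 trophectoderm, 12 fibroblast, 20 muscle or 12 haemoglobin and erythroid genes. The same held for the 39 Hox genes, 36 H2 histocompatibility genes, 91 cytosolic and 78 mitochondrial ribosomal protein genes, 21 major urinary protein genes and 37 secretoglobin genes. At the 1.76% of all genes, lists of these sizes would hold few such genes or none. A count of 0 therefore does not set these lists apart. All 39 Hox genes had a kept interval, whereas 18 of the 21 major urinary protein genes and 32 of the 37 secretoglobin genes had no pooled interval.

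**Figure D5:**
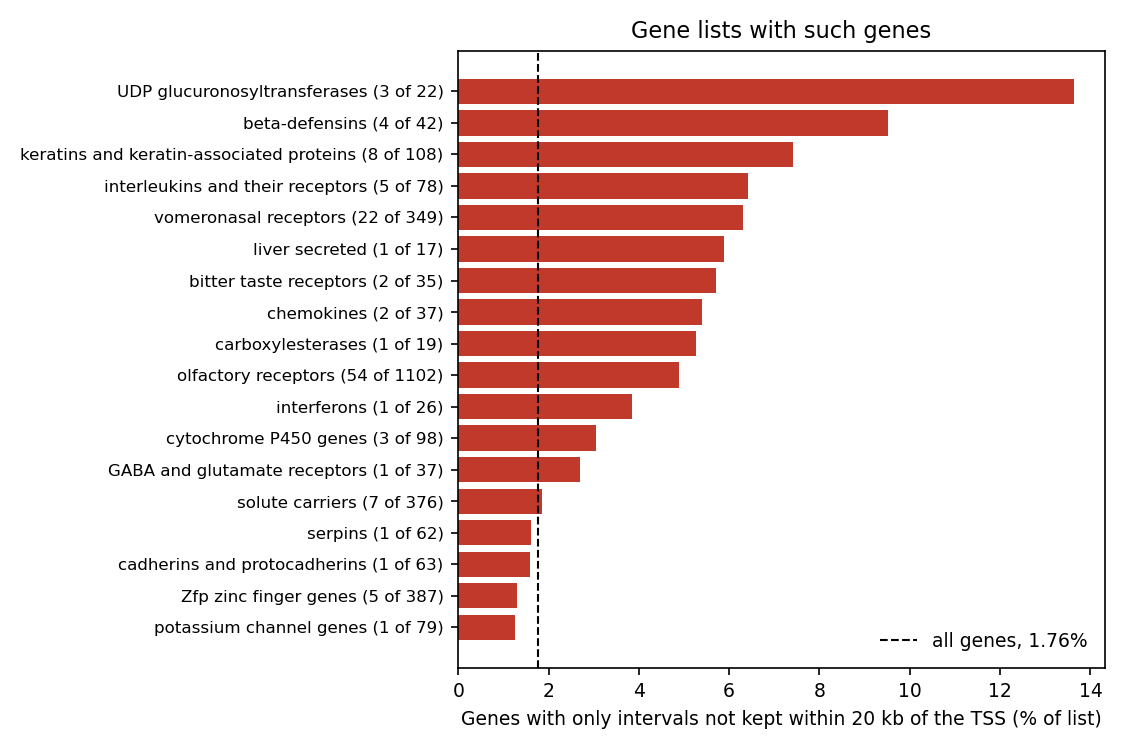
Percent of genes in each list (x axis) with intervals not kept and no kept interval within 20 kb of the TSS, for the lists with at least 1 such gene, with counts beside the names. The dashed line marks all protein-coding genes, 1.76%.

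The genes with the most bases in such intervals were Adgrg7, an adhesion G protein-coupled receptor gene, with 1124 bp in 4 intervals, and Tg, which encodes thyroglobulin, with 1119 bp in 3. At Adgrg7, on chromosome 16 from 56724609 to 56796006, the replicate 1 list covered 0% of the window and the replicate 2 list 2.54%. At Tg, on chromosome 15 from 66670754 to 66850721, the shares were 0.477% in replicate 1 and 1.99% in replicate 2. Both genes were thus listed mainly through replicate 2. Ldb2, which encodes a cofactor of LIM domain proteins, was alike, with 1048 bp, 0.417% in replicate 1 and 1.78% in replicate 2, and its nearest interval, 38 bp from the TSS, was overlapped by replicate 2 only. Slc43a3, a nucleobase transporter gene, had 980 bp in 4 intervals and 1.86% covered in replicate 1 and 1.20% in replicate 2. Grxcr1, a gene of sensory hair cells, had 921 bp, and its covered share was 0.725% in replicate 1 and 1.22% in replicate 2. Fam216b, the vomeronasal receptor gene Vmn1r55 and the lysophospholipase-like gene Lyplal1 completed the highest 10 with 825, 807 and 792 bp.

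Krt5 and Krt6a, neighbouring keratin genes of stratified epithelia on chromosome 15, were also among the highest 10 and shared 1108 bp in the same 4 intervals. One of these, from 101712593 to 101713041, covered the TSS of Krt5 and was overlapped by replicate 1 only, over 45.7% of its length. The window of either gene was covered to 1.15% in replicate 1 and 0.530% in replicate 2. Krt23, a keratin gene on chromosome 11, likewise had its TSS inside an interval of replicate 1 only, and its window was covered to 1.51% in replicate 1 and 1.305% in replicate 2 (mean 1.41% ± 0.14, SD, n = 2). At Krt23 both replicates thus listed peaks in the window, but each overlapped a different 1 of its 2 intervals, and no interval was kept. Both replicate lists covered some part of the window at 50 of the 358 genes, so this was not particular to Krt23.

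Among intervals within 500 bp of the TSS of these genes, the highest signal value was 3.36 at Gabrg3, 135 bp from its TSS, and at Pde3a, a cyclic nucleotide phosphodiesterase gene whose TSS lay inside the interval. At Gabrg3 the window was covered to 0.820% in replicate 1 and 0% in replicate 2, and at Pde3a to 1.49% and 0%. Pla2g4a, the cytosolic phospholipase A2 gene, followed with 3.25 and Zfp560 with 3.01, both seen in replicate 1 at this interval. The interval of 3.13 beside Zfp996 was seen in neither replicate. The aldo-keto reductase gene Akr1c13 (2.91), Ldb2 (2.90) and Dhrs2 (2.82) had intervals of replicate 2 only, and Gng11 (2.90), a G protein subunit gene, and Adad1 (2.78), a testis gene, had intervals of replicate 1 only. Adad1 was 1 of several genes with this signal value and was taken by the order of symbols.

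The genes named next are among those of the immune and metabolic lists with the most bases in intervals not kept. Most genes of the interleukin, chemokine and P450 lists had a kept interval (62 of 78, 23 of 37 and 53 of 98). Il9, an interleukin gene, had 3 intervals with 728 bp, and its window was covered to 1.13% in replicate 1 and 0.770% in replicate 2. Il1b, the interleukin-1 beta gene, had 1 interval of 522 bp, of which replicate 1 covered 84.1% and replicate 2 covered 0%. The TSS of the receptor gene Il18r1 lay inside an interval of 324 bp that replicate 1 alone overlapped, with the next kept interval 88481 bp away. The chemokine genes Ccl3 and Ccl4 shared 1 interval of 210 bp. Among the metabolic genes, Ugt2a3 had 2 intervals with 512 bp, both overlapped by replicate 1 and neither by replicate 2. Cyp4a10, a fatty acid hydroxylase gene, had 1 interval of 241 bp, of which replicate 1 covered 0% and replicate 2 covered 92.1%. Cyp2r1, the vitamin D hydroxylase gene, had 208 bp that neither replicate list overlapped. At Apoh, the apolipoprotein H gene of the liver list, the 1 interval of 233 bp lay 12247 bp from the TSS and was of replicate 2 only.

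Promoters of genes with only intervals not kept were poor in CpG. Of the 358 genes, 292 were matched in the promoter table. Their median ratio of observed to expected CpG was 0.180 and their median GC content 45%, against 0.691 and 59% at 13707 genes with a kept interval and 0.121 and 40.7% at 2458 genes with no pooled interval. Only 8 of the 292 (2.74%) lay in the highest tertile of all promoters, which began at a ratio of 0.766, and with windows of 10 kb in place of 20 kb the share was 5.52%. Motifs were searched on both strands in the same 300 bases. TATAAA, the core of the TATA box, was found in 26.4% of the 292, 9.41% of promoters with a kept interval and 13.5% of all promoters. GGGCGG, the GC box bound by SP1, was found in 12.3%, 55.7% and 47.3%. CCAAT was found in 37.7%, 38.3% and 39.1%, and the octamer ATGCAAAT, bound by POU factors, in 11 of the 292 (3.77%), 1.44% and 1.74%. The motifs were searched separately, and where matches overlapped each was counted. On these features the genes with only intervals not kept lay between the other classes except for the octamer, found in 3.13% of genes with no pooled interval, and CCAAT, found in 43.7%.

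The mm9 lists, deposited by the authors for the earlier genome build, were read at the same genes by symbol. Of 295 genes with only intervals not kept that could be placed on mm9, 136 (46.1%) had a peak of the series mm9 list within 20 kb of the mm9 TSS, against 99.2% of 14773 genes with a kept interval and 16.8% of 2289 genes with no pooled interval. In the lists of the single replicates the shares at these 295 genes were 26.1% for replicate 1 and 31.2% for replicate 2. Both replicates had an mm9 peak at 61 genes, Ldb2, Slc43a3 and Ugt2a3 among them, and no mm9 list had one at 155, Gabrg3 and Il18r1 among them. How the series mm9 list was derived from the replicates is not stated. Since all these lists belong to the same series, they are another view of the data and not a check from other samples.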

How the data were processed

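H3K4me1 ChIP-seq peak lists of 2 replicates of E14TG2a.4 cells were used as deposited. Per the read-me lists, the authors deposited mm10 narrowPeak lists for each replicate and for the pooled replicates, a replicated list derived from these 3, and mm9 broadPeak lists. Neither aligner nor peak caller is given in the sources used here, nor is the rule that made the replicated list. Each mm10 peak carries the authors' signal and, as deposited, its −log10 q and −log10 p. For mm9 peaks the deposited columns give signal, q-value and p-value as the authors' caller wrote them, and only the intervals were used.

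Overlap was counted from 1 bp. Protein-coding genes came from RefSeq (GRCm38.p6, 20665 autosomal genes), with strands from the RefSeq promoter table for 16457 genes and from GENCODE vM1 by symbol or synonym for 3907. The other 301 were left out. Where both sources gave a strand, 15704 of 15748 were the same. Named genes were up to 3 per list and the highest 10 by bases in intervals not kept, and the 10 with the highest signal value within 500 bp of the TSS. Named intervals were the 10 widest and the 10 with the highest signal. The members and lists were chosen with earlier results of these data known. Depth is unknown, so no limit that needs it was computed. Overlap functions were tested on simulated intervals. No coordinates were converted between builds. Alternatives were other overlap, q, window and start-site settings and leaving out each replicate. Promoter-table starts were added after the data were seen. Software was matplotlib 3.10.9, scipy 1.17.1, pandas 2.3.3 and numpy 2.4.6 under Python 3.11.15.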

Additional observations from a re-analysis of the deposited data

How the results depend on the processing

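No paired analysis was possible because there was 1 group. Shares and medians were compared with a 95% binomial interval over intervals or genes, which are not replicates. Counts were judged by a limit on fold change and not by this interval. Over all alternatives, 31 values moved beyond their limit and 17 did not. The number of intervals not kept stayed within its limit, at 75317 to 83149 against 81256. Their median width stayed at 219 bp with a −log10 q of at least 2 and with chromosome X added, the only settings run for it. With at least 50% of an interval covered, the shares seen in replicate 1 only, replicate 2 only, neither and both were 31.9%, 40.7%, 27.4% and 0.00369%. With 50% reciprocal overlap they were 29.1%, 38.2%, 32.7% and 0%, and with a −log10 q of at least 2 the first 3 were 34.0%, 43.0% and 21.8%. The median gap was 1218.5 bp from centre to centre, and, measured to the list of a single replicate in place of the kept intervals, 120 to 210 bp. In the latter, an interval that the replicate list itself overlapped counted as having no gap, which shortens the median. Shares near a TSS were 2.84% within 1 kb, 14.1% within 5 kb and 6.56% within 2 kb of any RefSeq promoter start. For replicate 1 only they were 5.12%, 18.4% and 10.4%, and for replicate 2 only 1.40%, 11.2% and 4.05%, so replicate 1 only stayed above. Genes with only intervals not kept numbered 149 to 184 when a replicate was left out, because fewer intervals then count, and 341 with windows of 50 kb, 166 of them among the 358. With windows of 10 kb, 5.52% of their promoters lay in the highest CpG tertile. An mm9 peak stood within 2 kb at 12.9%. The cause of these shifts was not tested. Peak lists cannot show marks below the caller's threshold.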

Other observations

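On chromosome X, which the autosomal rule leaves out, 1885 of 5339 pooled intervals (35.3%) were not kept, against 25.1% to 28.4% on the autosomes, of which chromosome 11 had the lowest share and chromosome 12 the highest.

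Both replicate lists also held intervals that no pooled interval overlapped. There were 13925 of them in replicate 1 (4.52% of its autosomal intervals), with a median width of 185 bp, and 13270 in replicate 2 (4.14%), with a median width of 178 bp. They were narrower than the intervals that touched only an interval not kept, whose median widths were 222 bp in replicate 1 and 216 bp in replicate 2.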
